A study of Mus musculus with 2 samples.

Results

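The endocannabinoid system was examined through 10 genes in total RNA sequencing libraries from mouse hippocampus: the cannabinoid receptor genes Cnr1 and Cnr2, the receptor partner Cnrip1, the lipase genes Dagla and Daglb, the hydrolase genes Mgll, Abhd6 and Abhd12, and the anandamide enzyme genes Napepld and Faah. They were chosen by gene symbol, and all 10 were found among the 55536 annotated gene rows, of which 22028 are protein-coding. The tissue, labelled layer of hippocampus, was taken at 10 days of age from B6CASTF1/J, an F1 cross of the inbred mouse strains C57BL/6J and CAST/EiJ. There was 1 group of 2 biological replicates, both male by their labels, which name 3 mice for each, and 300 ng of RNA went into each library. No genotype change or treatment is named, and it is not spelled out whether each library is a pool of its 3 mice. Since 1 group allows no comparison of conditions, the results are the levels of these genes, their ratios within a library, their transcripts and the difference between the libraries.

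Endocannabinoids are lipid messengers that travel backwards across the synapse. The principal one in brain, 2-arachidonoylglycerol (2-AG), is cut from diacylglycerol in the postsynaptic membrane when calcium rises or Gq-coupled receptors are active, and it acts on CB1, a Gi/o-coupled receptor on axon terminals, where it lowers transmitter release. Anandamide, the other main endocannabinoid, is an N-acylethanolamine made and removed by a different set of enzymes. In the hippocampus CB1 is known to be dense on the terminals of cholecystokinin basket cells and sparser on excitatory terminals.

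The expected counts over annotated genes summed to 31920933 in replicate 1 and 29640307 in replicate 2. Sex-linked genes went against the label of replicate 2. Xist, expressed from the inactive X chromosome, had 25 expected counts in replicate 1 and 30841 in replicate 2, and the Y-linked gene Ddx3y had 2164 and 0. Replicate 2 below is therefore the library labelled male, replicate 2, and every result is given for each library on its own. No part of these results could be tested for an effect of sex, since sex and library cannot be told apart. All 8 excitatory neuron markers and all 8 astrocyte markers were detected in both libraries, at a level of at least 1 TPM. So were all 9 genes listed as markers of cholecystokinin and CB1 basket cells. TPM, the unit of all levels here, is an abundance corrected for transcript length with an equal sum in every library, so genes can be compared with each other.

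The genes of CB1, its partner Cnrip1, Dagla, the 3 hydrolases and Faah lay between 18.7 and 88.5 TPM, Daglb and Napepld lay below 10 TPM, and the CB2 gene lay below 1 TPM. In both libraries 9 of the 10 genes were detected, where 59.4% of all protein-coding genes were. Of the 10, 7 lay above 15.7 TPM, the median of the detected protein-coding genes. By mean TPM the order was Abhd12, Cnr1, Cnrip1, Mgll, Dagla, Faah, Abhd6, Daglb, Napepld and Cnr2. In the alignment-based table no 2 neighbours in this order overlapped in their values over the 2 libraries. In the FASTQ-based table, a second deposited quantification of the same libraries, the ranges of Abhd12 and Cnr1 overlapped, and so did those of Dagla and Faah. There Faah was above Dagla in both libraries, at 64.2 and 67.5 TPM against 63.9 and 66.7 TPM, so the order of these 2 genes turned between the tables. In the alignment-based table, from coding transcripts only, Abhd12 lay below Cnr1 in both libraries. The 1 coding transcript of Abhd12 had 62.7 and 69.8 TPM. The 2 coding transcripts of Cnr1 had 64.5 and 63.6 TPM, and 9.20 and 7.90 TPM.

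**Figure D1:**
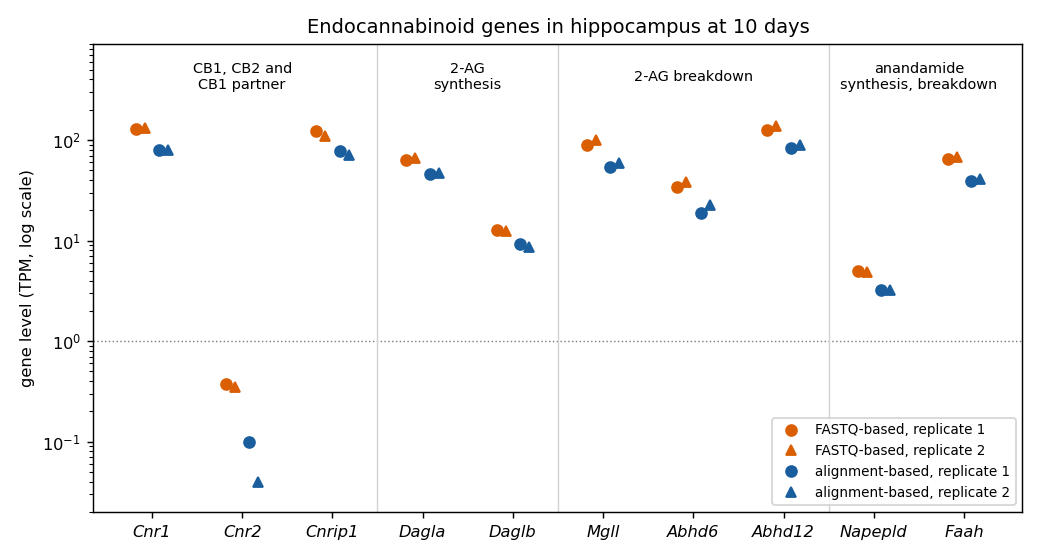
Gene level in TPM on a log axis for each of the 10 genes, with the FASTQ-based table in orange and the alignment-based table in blue, circles for replicate 1 and triangles for replicate 2. Cnr2 sits below the dotted line at 1 TPM in all 4 values, and the 2 libraries lie close together for the other 9 genes.

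Cnr1 (ENSMUSG00000044288.6, chromosome 4, 33924593 to 33948831, plus strand, GRCm38) encodes CB1. It had 80.25 TPM in replicate 1 and 79.9 TPM in replicate 2, a mean of 80.1 ± 0.269 TPM (SD, n = 2), from 9208 and 8327 expected counts. The 2 values were nearly the same, and they placed the gene above 90.9% of the 13075 detected protein-coding genes. In these bulk samples, fewer cells of a type and less RNA per cell cannot be told apart, so the level of Cnr1 says nothing of which cells hold it. The 9 genes listed as markers of cholecystokinin and CB1 basket cells summed to 447.1 TPM in replicate 1 and 441.1 TPM in replicate 2. Cck had 203 and 207.2 TPM. Gad1, a glutamate decarboxylase gene that is not particular to these cells, had 93.9 and 94.2 TPM. The list median was 36.1 and 35.6 TPM, and the lowest value was 1.41 and 1.53 TPM. The sum thus rested mostly on its highest genes, and it is no count of these cells.

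Cnr2 (ENSMUSG00000062585.11, chromosome 4, 135895394 to 135920207, plus strand) encodes CB2, the receptor known mainly from immune cells. It had 8 counts in replicate 1 and 3 in replicate 2, or 0.10 and 0.04 TPM, and was the only one of the 10 genes under 1 TPM. Per length and with no pseudocount, Cnr1 lay 795-fold above Cnr2 in replicate 1, with an exact counting interval of 404 to 1840, and 1960-fold above it in replicate 2, with an interval of 671 to 9510. These intervals (95%, Clopper-Pearson) cover counting error only, and they overlap. The FASTQ-based table gave Cnr2 0.371 and 0.346 TPM from 21.4 and 18.6 estimated counts, and ratios of Cnr1 over Cnr2 of 347 and 376. Each of these ratios lay below the counting interval of its library. All 9 microglial markers were detected, at a sum of 145.1 TPM in replicate 1 and 163.7 TPM in replicate 2, among them Csf1r, the CSF1 receptor gene, at 24.4 and 30.5 TPM. Of 7 lymphocyte markers 1 was detected, Ptprc at 1.04 and 1.06 TPM, and Cd3e and Cd8a were listed at 0 in both libraries.

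Cnrip1 (ENSMUSG00000044629.5, chromosome 11, 17051586 to 17079371, plus strand) encodes a small protein that binds the C-terminal tail of CB1. It had 78.5 TPM in replicate 1 and 70.7 TPM in replicate 2 (mean 74.6 ± 5.5, SD, n = 2), from 2654 and 2228 counts. The ratio of Cnr1 over Cnrip1 per length was 1.02 in replicate 1, with a counting interval of 0.980 to 1.07, and 1.13 in replicate 2, with an interval of 1.08 to 1.18. The partner gene was thus within counting error of the receptor gene in replicate 1 and below it in replicate 2. Cnrip1 overlaps Plek on the opposite strand by 796 bases, and Plek had 2.06 and 2.43 TPM.

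Of the lipase genes that make 2-AG, Dagla was several times higher than Daglb in both libraries. Dagla (ENSMUSG00000035735.10, chromosome 19, 10245265 to 10304877, minus strand) encodes the lipase known to make most 2-AG at synapses, and Daglb (ENSMUSG00000039206.13, chromosome 5, 143464584 to 143505942, plus strand) its relative, known in microglia and macrophages as well as in neurons. Dagla had 45.5 TPM in replicate 1 and 46.8 TPM in replicate 2 (mean 46.2 ± 0.926, SD, n = 2), from 5351 and 5079 counts. Daglb had 9.20 and 8.71 TPM (mean 8.96 ± 0.346, SD, n = 2), from 859 and 771 counts. Dagla was higher in both libraries, 4.94-fold in replicate 1 (counting interval 4.6 to 5.32) and 5.37-fold in replicate 2 (4.98 to 5.80). Its share of the summed TPM of the 2 lipases was 83.7 ± 0.8% (SD, n = 2), and 83.4% and 84.3% in the FASTQ-based table. No p-value is given for such a ratio, since a two-sided exact sign-flip test over 2 values cannot go below 0.5. Daglb overlaps Rac1 on the opposite strand by 2309 bases, and Rac1 had 199 and 190 TPM. The sources used here do not say whether reads were counted by strand, so reads from the overlap of Daglb and Rac1 cannot be told apart.

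The 3 hydrolases of 2-AG were all detected, and Abhd12 rather than Mgll had the highest level. Mgll (ENSMUSG00000033174.17, chromosome 6, 88724412 to 88828360, plus strand) encodes monoacylglycerol lipase, known to clear most 2-AG in adult brain from the presynaptic side. It had 53.8 TPM in replicate 1 and 59.3 TPM in replicate 2 (mean 56.5 ± 3.88, SD, n = 2), from 4051 and 4068 counts. Abhd6 (ENSMUSG00000025277.14, chromosome 14, 8002902 to 8056763, plus strand), a membrane hydrolase known from the postsynaptic side, had 18.7 and 22.6 TPM (mean 20.7 ± 2.79, SD, n = 2), from 856 and 913 counts. Abhd12 (ENSMUSG00000032046.15, chromosome 2, 150832493 to 150904741, minus strand), known above all as a lipase of lysophosphatidylserine, had 82.4 and 88.5 TPM (mean 85.5 ± 4.31, SD, n = 2), from 3061 and 3094 counts. In all 3 genes replicate 1 was the lower library in TPM.

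Of the summed TPM of the 3 hydrolases, Abhd12 held 52.6 ± 0.897%, Mgll 34.8 ± 0.0403% and Abhd6 12.7 ± 0.857% (SD, n = 2). The FASTQ-based table gave 50.1%, 36.1% and 13.7% in replicate 1. Mgll was 2.88-fold above Abhd6 in replicate 1 and 2.62-fold above it in replicate 2, and 0.653 and 0.670 times Abhd12, with no counting interval of the 4 reaching 1. Abhd12 was 4.41-fold above Abhd6 in replicate 1 and 3.91-fold above it in replicate 2. The sum of the 3 hydrolases, 155 TPM in replicate 1 and 170 TPM in replicate 2, was 2.83 and 3.07 times the sum of the 2 lipases, and 3.25 and 3.49 times it in the FASTQ-based table. Dagla itself was 0.846 times Mgll in replicate 1 and 0.790 times Mgll in replicate 2, so the leading synthesis gene lay below the monoacylglycerol lipase gene in both.

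These 5 enzymes share a catalytic mechanism, in which a serine in a sharp turn attacks the ester bond of the lipid. The stretches of the coding sequence around that serine are shown because they are what the lipases and hydrolases have in common at the level of sequence. Each runs 5′ to 3′ along the transcript of the GENCODE M21 annotation on GRCm38, which carries the C57BL/6J letters, and no allele of the cross was called. Capitals mark 5 codons that fit the pattern GGN, any codon, a serine codon (TCN, AGT or AGC), any codon, GGN. The match shown was picked by a narrower pattern. That has a histidine or threonine codon before the serine codon and a leucine or methionine codon after it.
Dagla, chr19:10254887-10254925, minus strand: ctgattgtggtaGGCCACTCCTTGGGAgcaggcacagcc
Daglb, chr5:143494551-143494589, plus strand: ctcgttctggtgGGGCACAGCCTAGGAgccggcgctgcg
Mgll, chr6:88808124-88809350, plus strand, across 2 exons: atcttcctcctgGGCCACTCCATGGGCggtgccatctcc
Abhd6, chr14:8042727-8042765, plus strand: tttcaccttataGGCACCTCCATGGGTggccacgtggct
Abhd12, chr2:150838772-150839751, minus strand, across 2 exons: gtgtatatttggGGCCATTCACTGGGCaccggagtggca

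Counted from the start codon, the serine codon in capitals was number 472 in Dagla, 443 in Daglb, 122 in Mgll, 148 in Abhd6 and 246 in Abhd12, the positions known for the nucleophile of each enzyme in mouse or human. The codon itself was TCC in Dagla, Mgll and Abhd6, TCA in Abhd12 and AGC in Daglb. The wider pattern is common: searched in frame on the coding strand, it was found in 18.5% of 21489 annotated coding sequences. The share with the narrower pattern was not counted. Dagla held 3 matches to the wider pattern, Mgll, Abhd12 and Faah 2 each and Daglb and Abhd6 1 each. The wider pattern was not found in Cnr1, Cnr2, Cnrip1 or Napepld. The leading coding sequences ran from 492 bases in Cnrip1 (164 codons before the stop) to 3132 bases in Dagla (1044 codons), with 2007 bases in Daglb, 909 in Mgll, 1008 in Abhd6 and 1194 in Abhd12.

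Dagla differs from Daglb in a long tail after the catalytic part, which is known to bind the scaffold protein Homer in dendritic spines. Dagla held 1 match to the proline-rich pattern CCN, CCN, any codon, any codon, TTT or TTC, and Daglb held none. The match is shown in capitals because it was found in the higher of the 2 lipase genes and not in the lower.
Dagla, chr19:10247853-10247891, minus strand: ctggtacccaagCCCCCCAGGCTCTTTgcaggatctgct

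That pattern was found in 6.96% of the same 21489 coding sequences, Faah among them with 1 match. A match is a description of letters and not a measured binding site.

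Of the anandamide pair, the synthesis gene lay far below the breakdown gene in both libraries. Napepld (ENSMUSG00000044968.16, chromosome 5, 21662901 to 21701396, minus strand) encodes the phospholipase D that releases anandamide and other N-acylethanolamines from their phospholipid precursors. It had 3.19 TPM in replicate 1 and 3.22 TPM in replicate 2 (mean 3.20 ± 0.0212, SD, n = 2), from 264 and 250 counts, and was above 12.6% of detected protein-coding genes. Faah (ENSMUSG00000034171.13, chromosome 4, 115967145 to 116017926, minus strand) encodes the membrane amidase that breaks anandamide down. It had 38.8 TPM in replicate 1 and 40.8 TPM in replicate 2 (mean 39.8 ± 1.36, SD, n = 2), from 2663 and 2625 counts. Napepld was 0.0822 times Faah in replicate 1 (counting interval 0.0722 to 0.0933) and 0.0790 times Faah in replicate 2 (0.0691 to 0.0900). From coding transcripts only, the mean log2 ratio of Napepld over Faah was -2.88, against -3.59 from all transcripts. Napepld has no annotated non-coding transcript, so only the level of Faah could fall in that ratio.

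Set side by side, the 2-AG lipase gene exceeded the anandamide synthesis gene, and Mgll exceeded Faah. Dagla was 14.3-fold above Napepld in replicate 1 (counting interval 12.6 to 16.2) and 14.5-fold above it in replicate 2 (12.8 to 16.6). Mgll was 1.39-fold above Faah in replicate 1 and 1.45-fold above it in replicate 2. From coding transcripts only, the mean log2 ratio of Mgll over Faah was 1.13, against 0.50 from all transcripts. These are ratios of RNA per length and not of enzyme amount or activity.

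Between the libraries the 9 genes that could be tested differed by less than 2-fold. An exact two-sided binomial test was run on the expected counts, with TMM scaling and Benjamini-Hochberg adjustment over every gene whose mean count reached 100. It called 4 of the 9 genes tested, where 11.6% of 12881 tested genes were called. That share is not matched on counts, and the test calls smaller differences at higher counts. Of the 4, 1 was higher in replicate 1 (5.38% of all tested genes) and 3 were lower (6.23%). No gene of the 9 reached 2-fold, which 0.303% of all tested genes did. This test compares 2 libraries and not conditions, so its p-values cover the sampling of reads from these 2 libraries only. The median log2 ratio of replicate 1 over replicate 2 was -0.04 over the 9 genes, with a range of -0.21 to 0.14, against a median of -0.001 over all tested genes.

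The 3 genes called lower in replicate 1 were the 3 hydrolases of 2-AG. Abhd6 had a log2 ratio of -0.21, a fold of 0.867 with a counting interval of 0.789 to 0.953 (exact binomial test, adjusted p = 0.0288). Abhd6 was not called when every gene with a count was tested, with no filter on low counts. Mgll had a log2 ratio of -0.12, a fold of 0.921 with an interval of 0.881 to 0.962 (exact binomial test, adjusted p = 0.00339), and Abhd12 one of -0.13, a fold of 0.915 with an interval of 0.870 to 0.962 (exact binomial test, adjusted p = 0.00695). Cnrip1 was the gene called higher in replicate 1, with a log2 ratio of 0.14, a fold of 1.10 and an interval of 1.04 to 1.17 (exact binomial test, adjusted p = 0.0105). Differences of this size were common: 12.9% of tested genes lay at least as far from 0 as Abhd6, 23.8% as far as Cnrip1, 26.7% as far as Abhd12 and 29.6% as far as Mgll.

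Cnr1, Dagla, Daglb, Faah and Napepld were not called. Their log2 ratios were 0.03 for Cnr1 (fold interval 0.992 to 1.05), -0.04 for Dagla (0.937 to 1.01), 0.04 for Daglb (0.933 to 1.14), -0.09 for Faah (0.888 to 0.990) and -0.03 for Napepld (0.818 to 1.17). Faah had an unadjusted p of 0.0204 and an adjusted p of 0.123 in the exact binomial test, and an adjusted p of 0.0424 when the FASTQ-based counts were tested. Cnr2 was too low to be tested, and its ratio of 2.26 had a counting interval of 0.592 to 14.4.

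**Figure D2:**
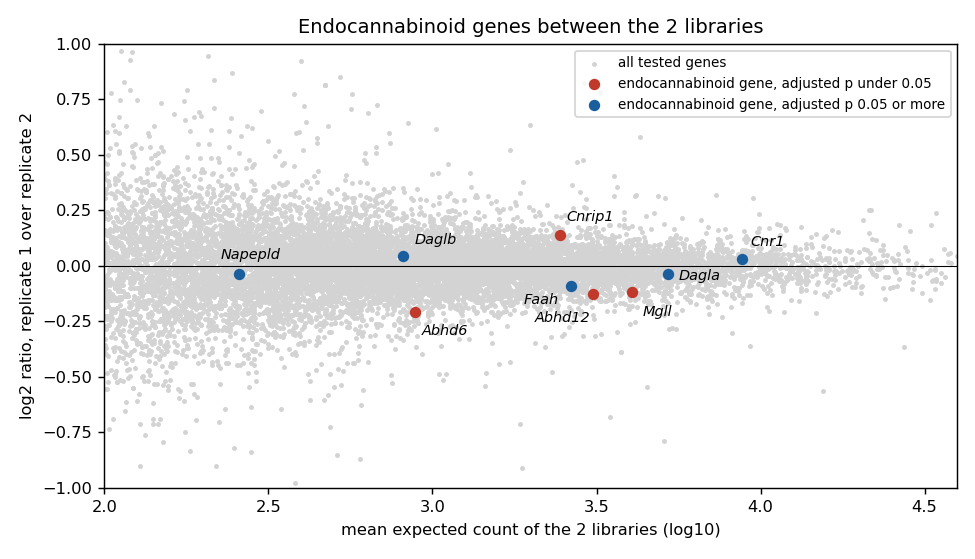
Log2 ratio of replicate 1 over replicate 2 against the log10 mean expected count, with the genes tested in grey, the 4 endocannabinoid genes with an adjusted p under 0.05 in red and the other 5 in blue; genes beyond a log2 ratio of 1 or a log10 count of 4.6 lie outside the frame. All 9 lie between -0.21 and 0.14, inside the cloud of other genes.

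Some genes in marker lists of other cell types differed between the libraries too. Beside these calls, 5.38% of all tested genes were called higher and 6.23% lower in replicate 1. Those shares are not matched on counts, and the test calls smaller differences at higher counts. Oligodendrocyte markers summed to 308.6 TPM in replicate 1 and 446.0 TPM in replicate 2 (5 of 7 tested lower and 1 higher in replicate 1), led by Mbp at 89.2 and 161 TPM and Olig1 at 71.1 and 73.6 TPM, with Mobp past 2-fold at 7.60 and 21.2 TPM. Choroid plexus markers summed to 12.92 and 355.9 TPM, nearly all of it Ttr at 8.02 and 340 TPM, with Sostdc1 at 2.08 and 4.66 TPM, and 2 of 3 tested were lower in replicate 1. Meningeal and fibroblast markers summed to 418.3 and 162.1 TPM, with Ptgds at 333 and 85.1 TPM and Dcn at 28.8 and 28.6 TPM, and 4 of 5 tested were higher in replicate 1.

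Of red blood cell markers 5 of 5 were higher in replicate 1, at a sum of 957.6 against 566.3 TPM. Of microglial markers 3 of 8 tested were lower in replicate 1, of endothelial markers 2 of 6, at sums of 86.33 and 88.33 TPM, and of astrocyte markers 4 of 8, with 2 higher, at sums of 1285 and 1360 TPM. Excitatory neuron markers summed to 2247 and 2420 TPM, with 3 of 8 lower and 1 higher in replicate 1. Parvalbumin cell markers summed to 44.11 and 47.14 TPM with 0 of 4 called, and the list for cholecystokinin and CB1 basket cells gave 1 higher of 9. Among all tested genes, 5.38% were called higher and 6.23% lower. At high counts small differences were called, as for the astrocyte marker Slc1a2 (log2 ratio -0.10) and the excitatory marker Nrgn (-0.07). The part of these lists in the differences of Mgll, Abhd6, Abhd12 and Cnrip1 was not tested.

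The transcripts behind each gene were read from both quantification routes. In the FASTQ-based table Dagla-201 held 95.6% and 92.6% of the TPM of Dagla in replicates 1 and 2, Cnrip1-201 held 90.1% and 88.1% of Cnrip1, Daglb-201 held 82.8% and 81.4% of Daglb, and Abhd12-201 held 84.5% and 81.9% of Abhd12. In the alignment-based table the same transcripts led, at 96.6% and 95% for Dagla, 92.7% and 91.6% for Cnrip1, 82.0% and 86.2% for Daglb and 76.1% and 78.8% for Abhd12. Cnr2-201 held all of what was assigned to Cnr2 in both tables. A non-coding processed transcript, Abhd12-207, held 7.44% and 6.32% of Abhd12 in the FASTQ-based table, and 16.8% and 14.0% in the alignment-based one.

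Faah had the lowest protein-coding share of the 10 genes. Among these, Cnr2, Abhd6 and Napepld have only coding transcripts annotated, so their share was fixed by the annotation. Faah has 8 annotated transcripts, of which 1 is protein-coding and 5 retain an intron. In the FASTQ-based table the coding transcript Faah-201 held 51.5% of the TPM of the gene in replicate 1 and 52.7% in replicate 2. In the alignment-based table it held 62.0% and 59.8%, and transcripts with a retained intron held 32.3% and 33.7%. The alignment-based mean of 60.9% for Faah was at or above that of 19.5% of 10425 genes with annotated coding and non-coding transcripts, whose median coding share was 83.6% (quartiles 66.4 to 93.7%). Of the retained-intron transcripts the leading ones were Faah-206, at 12.7% and 12.1%, and Faah-203, at 7.68% and 11.3%. Total RNA holds unspliced RNA as well as mature mRNA, and the part of it in these transcripts was not tested. Daglb also had retained-intron transcripts, with 18.1% and 13.8% of its TPM, among them Daglb-204 at 8.87% and 7.57%.

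**Figure D3:**
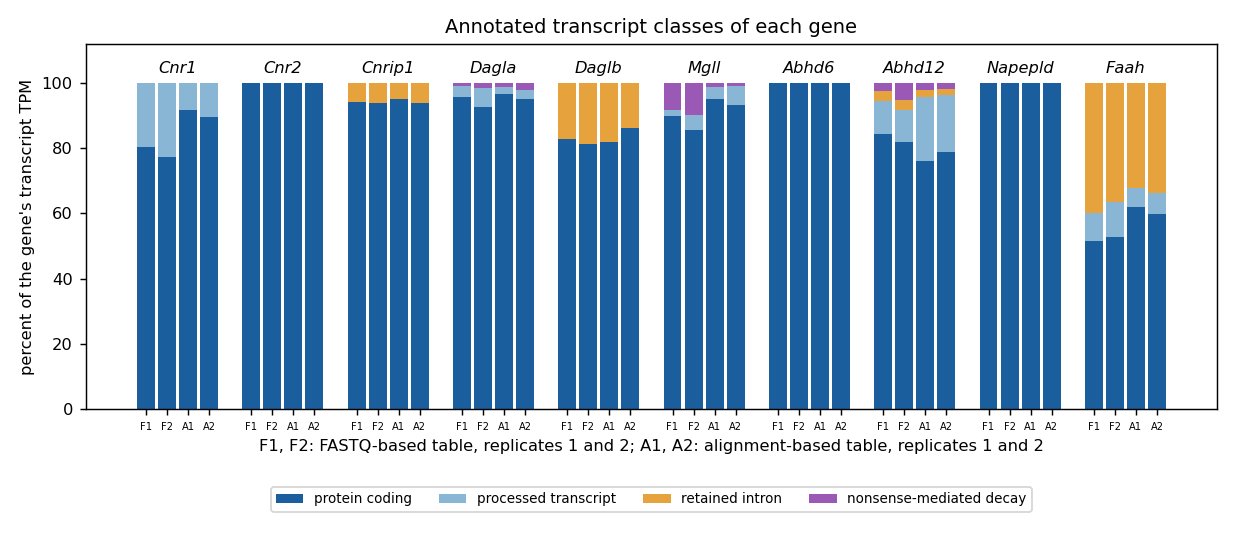
Percent of the transcript TPM of each gene held by each annotated transcript class, as stacked bars for the FASTQ-based table (F1, F2) and the alignment-based table (A1, A2) in replicates 1 and 2. Faah has the smallest protein-coding part, 51.5 to 62.0%. Cnr2, Abhd6 and Napepld have no annotated non-coding transcript, so they are protein-coding throughout by annotation.

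Cnr1 and Mgll each have transcripts that begin at separate first exons. In Cnr1, Cnr1-201 begins at 33924632 and Cnr1-202 further downstream at 33926202, and both carry the same coding sequence of 1419 bases. In the alignment-based table Cnr1-201 had 64.5 TPM in replicate 1 and 63.6 TPM in replicate 2, and Cnr1-202 had 9.20 and 7.90 TPM. Of the TPM of these 2 coding transcripts, Cnr1-201 held 71.8% and 72.5% in the FASTQ-based table, and 87.5% and 89.0% in the alignment-based one. Both routes placed most of the coding RNA of Cnr1 at the upstream exon in both libraries, and they differed in how much. A short processed transcript from the upstream exon, Cnr1-203, held 19.5% and 22.8% of the gene in the FASTQ-based table, and 8.14% and 10.4% in the alignment-based one.

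In Mgll, 5 transcripts begin in an upstream exon (88724412 to 88724571) and 4 in one just downstream of it (88724596 to 88725178). In the FASTQ-based table the upstream group had 20.4 TPM in replicate 1 and 17.3 TPM in replicate 2, and the downstream group 69.6 and 82.4 TPM. In the alignment-based table they had 27.4 and 27.3 TPM upstream, and 26.4 and 32 TPM downstream. The upstream share of the 2 groups was thus 22.6% and 17.3% by the FASTQ-based TPM, and 50.9% and 46.1% by the alignment-based TPM. Which first exon of Mgll leads could not be settled from the 2 routes.

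The single transcripts of Mgll differed in the same way. Mgll-204, from the upstream exon, held 9.46% and 1.62% of Mgll in the FASTQ-based table and 46.8% and 38.5% in the alignment-based one. Mgll-201, from the downstream exon, held 49.4% in both libraries in the FASTQ-based table and 15.2% and 25.9% in the alignment-based one. Both encode the same 909 bases. Mgll-207 held 22.4% and 28.2% in the FASTQ-based table and 29.9% and 25.4% in the alignment-based one, and its coding sequence of 957 bases ends with those 909 and has 48 more before them.

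**Figure D4:**
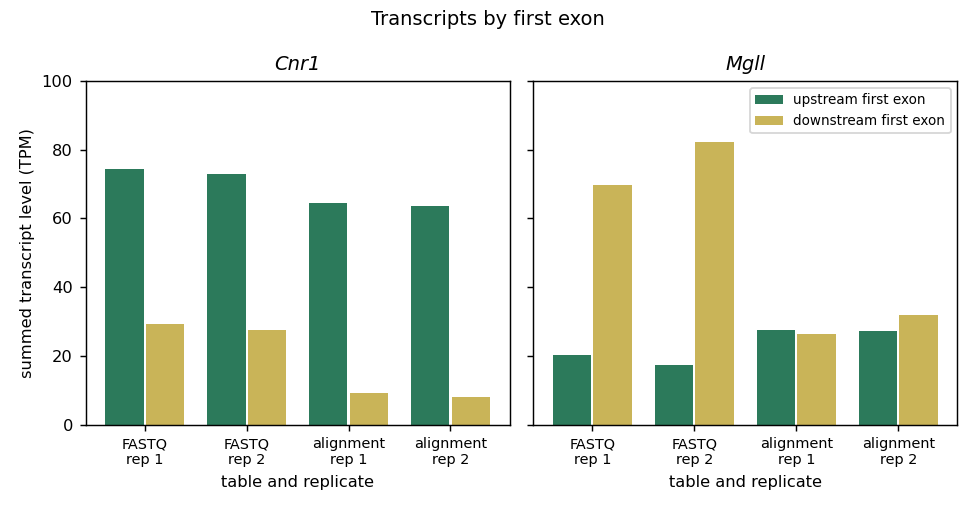
Summed transcript TPM by first exon for Cnr1 (coding transcripts) and Mgll (all transcripts of both exons), for the FASTQ-based and the alignment-based table in each replicate; green bars are the upstream and yellow bars the downstream exon. The upstream exon of Cnr1 leads in all 4 pairs of bars, from 63.6 to 74.4 TPM, and the Mgll exons are close in the alignment-based table and far apart in the FASTQ-based one.

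The windows at RefSeq starts within these first exons are shown because the transcripts of Cnr1 and of Mgll divide between the exons. The windows do not divide the transcripts in the same way. The downstream Cnr1 start lies inside the first exon of Cnr1-202, which begins at 33926202, so that window holds bases of the exon before the RefSeq start. The downstream Mgll window begins inside the upstream exon and ends before Mgll-201 begins at 88724828. Each holds the 250 bases before and the 50 after a transcript start of RefSeq on GRCm38.p6, 5′ to 3′ on the plus strand, with CG dinucleotides in capitals. Those of Cnr1 are at the RefSeq starts 33924644 and 33926380, and those of Mgll at 88724412 and 88724704, which are also the first bases of Mgll-204 and Mgll-207.
Cnr1 upstream, chr4:33924394-33924693: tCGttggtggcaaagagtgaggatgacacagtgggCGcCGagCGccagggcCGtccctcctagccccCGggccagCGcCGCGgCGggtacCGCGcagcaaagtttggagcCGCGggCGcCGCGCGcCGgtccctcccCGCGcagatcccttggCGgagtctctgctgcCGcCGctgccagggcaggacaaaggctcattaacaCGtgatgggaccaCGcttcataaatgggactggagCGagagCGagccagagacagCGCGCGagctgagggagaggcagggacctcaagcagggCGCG
Cnr1 downstream, chr4:33926130-33926429: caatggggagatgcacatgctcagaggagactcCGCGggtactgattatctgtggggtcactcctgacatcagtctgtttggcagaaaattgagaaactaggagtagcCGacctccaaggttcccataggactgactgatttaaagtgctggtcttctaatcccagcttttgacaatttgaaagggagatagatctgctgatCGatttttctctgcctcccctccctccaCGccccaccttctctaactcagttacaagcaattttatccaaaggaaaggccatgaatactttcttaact
Mgll upstream, chr6:88724162-88724461: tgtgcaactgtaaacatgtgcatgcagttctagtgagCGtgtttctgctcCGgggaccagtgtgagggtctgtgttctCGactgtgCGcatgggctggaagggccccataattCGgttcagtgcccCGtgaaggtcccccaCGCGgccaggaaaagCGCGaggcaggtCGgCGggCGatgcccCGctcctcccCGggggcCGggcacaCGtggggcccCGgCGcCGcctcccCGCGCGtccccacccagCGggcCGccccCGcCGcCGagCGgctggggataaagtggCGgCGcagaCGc
Mgll downstream, chr6:88724454-88724753: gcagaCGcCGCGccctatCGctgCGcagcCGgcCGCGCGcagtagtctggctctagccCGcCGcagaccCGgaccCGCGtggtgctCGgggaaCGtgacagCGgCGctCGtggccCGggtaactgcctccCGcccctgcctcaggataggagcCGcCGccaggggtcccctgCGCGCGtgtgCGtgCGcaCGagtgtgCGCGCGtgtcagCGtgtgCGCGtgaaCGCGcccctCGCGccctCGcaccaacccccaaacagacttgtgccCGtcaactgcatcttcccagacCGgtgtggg

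The upstream Cnr1 window had 33 CG dinucleotides and 69.0% GC, and 91.4% of all windows had fewer CG. The downstream Cnr1 window had 5 and 46.3% GC, and 38% of windows had fewer. The 2 Mgll windows had 32 and 42, at 70.0% and 72.3% GC, with fewer in 90.5% and 97.0% of windows. Another Cnr1 window, at 33924014 to 33924313, had 40 and 76.3% GC. The 32851 RefSeq windows of this length had a median of 7 (quartiles 3 to 20) and 52.7% GC. Of the motifs searched on both strands, the GC box GGGCGG was found 1 time in each Mgll window and in neither of the 2 Cnr1 windows shown. The other Cnr1 window, at 33924014 to 33924313, held 5. Of all windows, 35.7% had at least 1 match. TATAAA (13.6% of all windows) and CCAAT (37.4%) were not found in the 4 windows. Promoter windows were found for 8 of the 10 genes, with none for Dagla and Abhd12.

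The other transcripts that held at least 10% of a gene were alternative coding transcripts of Abhd6 and Napepld. In the FASTQ-based table Abhd6-202 held 55.0% and 66.0% of Abhd6 and Abhd6-201 held 36.8% and 34.0%, and in the alignment-based table they held 94.3% and 84.9%, and 0% and 15.1%. Both encode the same 1008 bases. The FASTQ-based table gave 25.9% and 73.1% of Napepld to Napepld-202 and 74.1% and 26.9% to Napepld-201, while the alignment-based table gave them 82.7% and 100%, and 17.3% and 0%. Both encode the same 1188 bases, so the split does not change the coding sequence. On the minus strand Napepld-202 and Napepld-201 begin at 21701394 and 21701396, and their first exons end at 21700975 and 21701205. For Napepld the split changed between libraries and routes alike.

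The routes also set different levels. The FASTQ-based TPM was above the alignment-based TPM for all 10 genes in both libraries, by 1.38-fold to 1.83-fold for 9 of them and by 2.35-fold and 3.19-fold for Cnr2, with a pseudocount of 0.1 TPM added to both values. For Cnr2 that pseudocount equals or exceeds the alignment-based levels, so it lowers the fold. A shift of this kind was general among the 18483 genes with a mean of at least 1 TPM by either route. Their median log2 ratio of FASTQ-based over alignment-based TPM was 0.63 in both libraries, and 0.62 for the 14210 protein-coding ones. A log2 ratio of at least 1 in size, with the same sign in both libraries, was found for 1 of the 10 genes, Cnr2. It was found for 10.4% of the 14210 and 18.9% of the 18483 genes. Cnr2 lies below a mean of 1 TPM by both routes, so these shares do not cover it. The count of 1 rests on the 8 and 3 expected counts of Cnr2. This count was 0 with a pseudocount of 1 and 0 after centring on the median of the 18483 genes. The log2 ratios of the receptor gene Cnr1 were 0.68 and 0.70, those of the lipase gene Dagla 0.49 and 0.51 and those of Mgll 0.74 and 0.75.

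The other genes of the pathway were read from lists grouped by function. Of all tested genes 5.38% were called higher and 6.23% lower in replicate 1, shares not matched on the counts of these lists. The 10 endocannabinoid genes had a median of 42.2 TPM in replicate 1 and 43.8 TPM in replicate 2. The 11 genes listed as other N-acylethanolamine enzymes had medians of 6.83 and 8.55 TPM, with 9 detected and 1 of 8 tested called. That was Inpp5f, higher in replicate 1 at 172 against 160 TPM (log2 ratio 0.12), and its place among these enzymes was not tested. Gde1, a glycerophosphodiesterase of the route that bypasses Napepld, had 92.8 and 95.2 TPM, and Abhd4, which deacylates the precursor phospholipid, had 20.2 and 22.2 TPM. Gdpd1, a relative of Gde1, had 27.1 and 27.2 TPM, and Gdpd3 was the lowest detected at 1.23 and 1.42 TPM. The genes Gde1, Gdpd1 and Abhd4 thus lay above Napepld in both libraries.

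Among 20 other enzymes that form or clear 2-AG, 15 were detected, and 0 of 15 tested were called higher and 3 lower in replicate 1. For comparison, 5.38% of all tested genes were called higher and 6.23% lower, shares not matched on counts. Dgkz, a diacylglycerol kinase that uses the substrate of the lipases, had 140 TPM in replicate 1 and 149 TPM in replicate 2 and was called (log2 ratio -0.19). Plcg1 had 54.2 TPM in both libraries. The phospholipase C gene Plcb1, which makes diacylglycerol, had 44.1 and 47.7 TPM, and the acylglycerol lipase gene Abhd2 had 41.9 and 43.9 TPM, and both were called lower. Plcg2 was the lowest detected, at 1.26 and 1.61 TPM. Of 7 carriers of anandamide 6 were detected, led by the fatty acid binding proteins Fabp7 at 272 and 281 TPM, Fabp5 at 189 and 184 TPM and Fabp3 at 75.3 and 71.6 TPM. The heat shock gene Hspa2, at 33.8 and 37.0 TPM, was the 1 of 6 tested that was called, lower in replicate 1, and Hspa1a was the lowest detected at 3.07 and 3.48 TPM.

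Genes listed as other receptors of endocannabinoids and related lipids were mostly low, and their response to these lipids was not tested. Of 12 genes 5 were detected, with a list median of 0.750 TPM in replicate 1 and 0.775 TPM in replicate 2. Gpr12 had 21 and 21.4 TPM, the channel gene Trpv2 had 11.7 and 13.1 TPM, and the adenosine receptor gene Adora2a had 1.45 and 2.49 TPM. Gpr3 was called lower in replicate 1, at 2.25 against 3.29 TPM (log2 ratio -0.61), and Gpr6 was the lowest detected by mean TPM at 1.83 and 2.06 TPM. The channel gene Trpv1, on which anandamide acts in sensory neurons, had 0.11 and 0.05 TPM, Gpr55 had 0.04 and 0.05 TPM and Gpr18 was listed at 0 in both. Cnr1 was above all 12 in both libraries.

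The 14 postsynaptic genes listed as linked to 2-AG release, among them receptor, scaffold and kinase genes, were all detected. Of the 14, 8 were called lower and 0 higher in replicate 1, where 6.23% and 5.38% of all tested genes were. Those shares are not matched on counts, and the test calls smaller differences at higher counts. The median log2 ratio of the 14 genes was -0.11. Camk2b, with 29912 counts in replicate 1 and 28460 in replicate 2, was called at a log2 ratio of -0.04. The kinase gene Camk2a had 788 TPM in replicate 1 and 882 TPM in replicate 2 and Camk2b had 382 and 391 TPM. The scaffold gene Shank1 had 214 and 219 TPM, and all 3 were called lower. Grm5, the glutamate receptor that drives 2-AG release in the hippocampus, had 105 and 102 TPM and was not called. Camk2a is also one of the excitatory neuron markers given above.

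The partners through which CB1 signals were detected in full, 20 of 20 genes, with medians of 87.2 TPM in replicate 1 and 89.0 TPM in replicate 2, and 2 were called higher and 2 lower in replicate 1. The G protein genes Gnb1 at 463 and 454 TPM, Gnao1 at 411 and 423 TPM and Gng2 at 252 and 225 TPM were among the highest. Gnao1 was called lower and Gng2 higher, and Gnai3 was the lowest at 26.6 and 25 TPM. Of 21 serine hydrolases of the ABHD family, which include Abhd6 and Abhd12, 18 were detected, with medians of 18.4 and 19.9 TPM. Of the 18 tested, 0 were called higher and 4 lower, with Abhd6 and Abhd12 among the 4. Beside these 2 lists, 5.38% of all tested genes were called higher and 6.23% lower. Those shares are not matched on counts, and the test calls smaller differences at higher counts. Abhd12 was the highest of the family, with Abhd17a, a depalmitoylating enzyme, next at 80.2 and 78.2 TPM, Abhd8 at 65.0 and 72.2 TPM and Abhd2 after it, and Abhd18 was the lowest detected by mean TPM at 4.49 and 4.27 TPM.

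**Figure D5:**
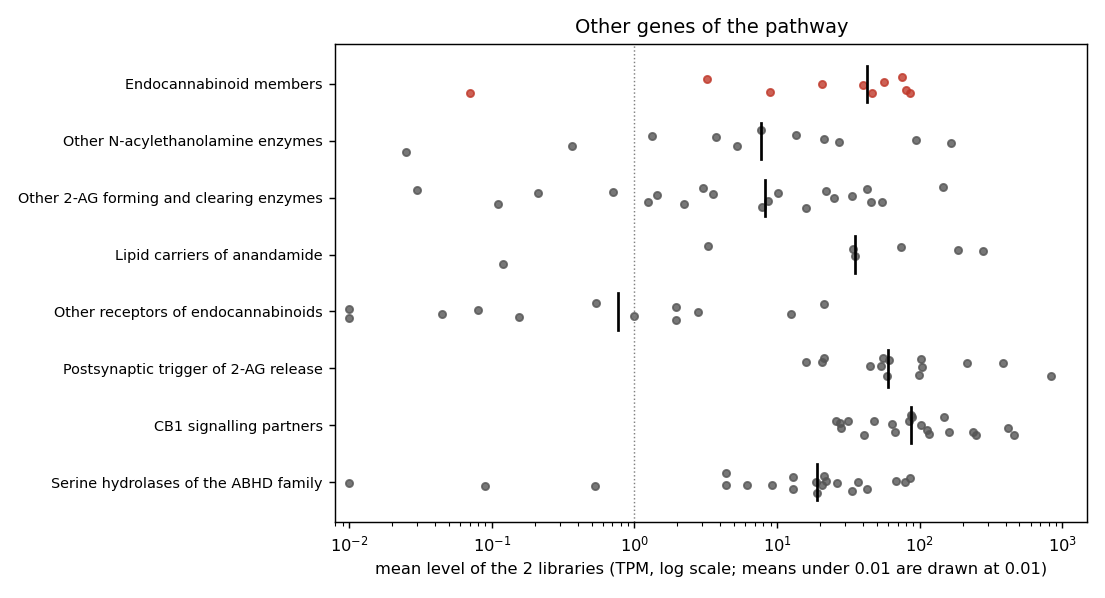
Mean TPM of the 2 libraries on a log axis for every gene of each list, with a black bar at the list median and a dotted line at 1 TPM; endocannabinoid genes are in red. The endocannabinoid genes reach from under 0.1 to 85.5 TPM, and all genes of the postsynaptic and CB1 partner lists lie above 10 TPM.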

How the data were processed

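Total RNA libraries from hippocampus, 2 replicates of 1 group, were analysed from deposited gene and transcript tables. The authors deposited expected counts, not normalized, and TPM scaled to one fixed total over all rows, from transcriptome alignments to mm10 with GENCODE M21, per the deposited descriptions. The deposited percent column gives the share of a gene held by a transcript. Alignment-based shares of single transcripts in a gene are taken from that column. FASTQ-based shares, and shares of transcript classes and first exons, were computed from TPM. From the FASTQ file a second table was deposited, with estimated counts and TPM per transcript, which were summed here per gene (86 genes had no row). No source used here gives the tools or the strand setting.

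Left out of library sizes and tests were 26248 rows named by a number (2.81e-05% and 2e-05% of counts) and 97 spike-in rows (0.358% and 0.359%). Expected counts were rounded before tests. Scaling was TMM in edgeR 4.0.16 (R 4.3.3), with a ratio of 1.08 between the libraries. Every gene whose mean count reached 100 entered an exact binomial test, two-sided, and calls needed a Benjamini-Hochberg adjusted p under 0.05, with a further rule of at least 2-fold. Log2 ratios of TPM used a pseudocount of 0.1, and counts a prior of 0.5. Intervals are exact Clopper-Pearson intervals at 95% and cover counting error only, since no molecular identifiers are described. The binomial test was tested on simulated data with 200 changed genes. Alternatives were DESeq2 1.42.0 size factors, totals, other filters, priors and pseudocounts, FASTQ-based counts and TPM, coding transcripts only, TPM over nuclear protein-coding genes and single libraries; a two-sided p by outcome probability was added after seeing the data.

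The genes and lists were chosen with earlier results of these data known. Named were all 10 genes, the 4 highest and the lowest detected of each pathway list, up to 2 of the highest of a marker list, those called past 2-fold, and transcripts with at least 10% of a gene by either route. Cd3e, Cd8a, Rac1, Plek, Trpv1, Gpr55, Gpr18, Xist and Ddx3y were named outside this rule, after their values were seen; some genes that the rule names are not reported here, and list medians, sums and counts include them. The lists name some genes also by an older or newer symbol, which left 11 of 13 and 20 of 23 entries in 2 lists. Sequences came from GENCODE M21 transcripts and RefSeq promoter windows. Other steps used Python 3.11.15, numpy 2.4.6, pandas 2.3.3, scipy 1.17.1, Biopython 1.88 and matplotlib 3.10.9. No allele of the cross was called.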

Additional observations from a re-analysis of the deposited data

How the results depend on the processing

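No called difference between the libraries and no mean pair ratio listed here turned its direction. The leading transcripts of Mgll in both libraries and of Napepld in replicate 1, and the order of Dagla and Faah, turned with FASTQ-based TPM. The order of Abhd12 and Cnr1 turned when only coding transcripts were used. DESeq2 size factors, totals of expected counts, a mean count of at least 10 and the other two-sided p each called the same 4 genes, where 11.7%, 11.7%, 8.69% and 11.8% of all genes were called. No filter gave 3, without Abhd6 (4.97%), and FASTQ-based counts gave 5, adding Faah (11.8%). The count of genes apart between the routes, 1, was 0 with a pseudocount of 1. It was also 0 after centring on the median of genes with a mean of at least 1 TPM by either route. The log2 ratio of Cnr1 over Cnr2, 8.90, was 8.14 from FASTQ-based TPM and 6.24 with a pseudocount of 1. From FASTQ-based TPM, Mgll over Abhd12 was -0.47, Abhd12 over Abhd6 1.86, Dagla over Mgll -0.54, Napepld over Faah -3.72 and Dagla over Napepld 3.70. With a pseudocount of 1, Dagla over Daglb was 2.24, Napepld over Faah -3.28 and Dagla over Napepld 3.49. From coding transcripts only, Dagla over Daglb was 2.54, Mgll over Abhd12 -0.31, Abhd12 over Abhd6 1.68, Napepld over Faah -2.88, Mgll over Faah 1.13 and Dagla over Napepld 3.75. The shifts under coding transcripts follow from the transcripts it drops; the cause of the others was not tested. TPM over nuclear protein-coding genes multiplied every level by 2.16 to 2.17. Each library alone gave the ratio of its own library, for Cnr1 over Cnr2 8.65 and 9.16 on the log2 scale with a pseudocount of 0.1, and leaves no test between libraries. No paired analysis was possible because there is 1 group. At 8 and 3 counts the depth limits Cnr2. Its ratio to Cnr1 also depends on the quantification. The FASTQ-based ratios of Cnr1 over Cnr2, 347 and 376, lay below the counting intervals of 404 to 1840 and 671 to 9510.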
